A study of Mus musculus with 2 samples.

Results

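Vasoactive peptide and nitric oxide genes were followed in stromal cells of the lymph node on 2 microarrays. They are 10 genes: Agtr1a, Agtr2 and Ace of the angiotensin system, Edn1, Ednra and Ednrb of the endothelin system, Nos3, which makes nitric oxide, and Adm, Calcrl and Ramp2 of the adrenomedullin system. All 10 were found by gene name among the 37074 names on the arrays, with 14 of the 56605 probes. The genes were chosen by their known role with the differences between these same arrays already in view, so every value below describes those arrays and none is a test. The tumor-draining array holds cells of female mice whose mammary gland was inoculated under the skin with 4T1 cells, a mouse mammary carcinoma line known to come from BALB/c mice, and whose draining nodes were taken 2 weeks later. The normal array holds cells of female mice that were given no tumor. The labels name C57BL/6 as the strain that received the tumor, and give neither the age of the mice nor the number pooled for an array. On both arrays the cells had been sorted as CD45-negative, that is, without the antigen shared by white blood cells. With 1 array in each group there is no replicate and no p-value, and precision is limited by that number.

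Small blood and lymph vessels set their width and leakiness with locally made peptides and gases. Angiotensin II is made by the enzyme Ace, which cuts it from a longer peptide, and acts through a constricting receptor, Agtr1a, and an opposing receptor, Agtr2. Endothelin, from Edn1, is a strong constrictor made largely by endothelium, and its receptors sit on smooth muscle and pericytes (Ednra) and on several cell types that include endothelium (Ednrb). Nos3, the endothelial nitric oxide synthase, makes the gas that relaxes smooth muscle through guanylate cyclase. Adrenomedullin, from Adm, widens vessels and is needed for lymphatic development. It binds Calcrl only when Ramp2, or the related Ramp3, escorts that receptor to the surface.

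Signals of all 10 genes were lower in tumor-draining cells, by at least 2-fold. A difference here is the log2 processed signal after each array was scaled to its 75th percentile, tumor-draining minus normal, and a gene is represented by its brightest probe. Over all 24704 genes above background on at least 1 array, 16.5% were at least 2-fold lower by the same rule. Since these genes were chosen on this contrast, nothing is read from that gap. The median difference of the 10 genes was -2.15, beside 0.10 over all genes. Of the 14 probes, 12 were above background on both arrays, 1 on the normal array only and 1 on neither, and those 12 were the ones at least 2-fold lower. Over all probes above background on at least 1 array, 15.8% were. Signals below are processed intensities, followed by the error that the scanner software gives for the spot, which covers the spot and not the mice. Levels are compared only within a probe.

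Before the single genes, some facts on the arrays bear on all of them. Leukocyte genes were well above background in both CD45-negative sorts. Ptprc, which encodes CD45, had a signal of 17432 on the tumor-draining array and 3702 on the normal array. The 6 pan-leukocyte markers summed to 65804 on the tumor-draining array and 18511 on the normal array, and all 6 were at least 2-fold higher. The 12 blood endothelial markers summed to 7982 and 61512 on the same arrays, with all 12 at least 2-fold lower, and the 10 pericyte and smooth muscle markers summed to 16891 and 52982, with 9 lower. Each sum is weighted to its brightest probes, and is set between the arrays only and not between lists. In bulk RNA like this, fewer cells of a type and less RNA per cell cannot be told apart. The part of these markers in the differences below was not tested. Spike-in RNA, added at labeling as a control, had a median difference of -0.78 over 8 probes, which ran from -0.94 to 0.33. Scaling to that median raises every difference by 0.78. With that scaling 9 of the 10 genes stayed at least 2-fold lower, while 8.32% of all genes were lower and 43.8% higher, against 16.5% and 11.5%.

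**Figure D1:**
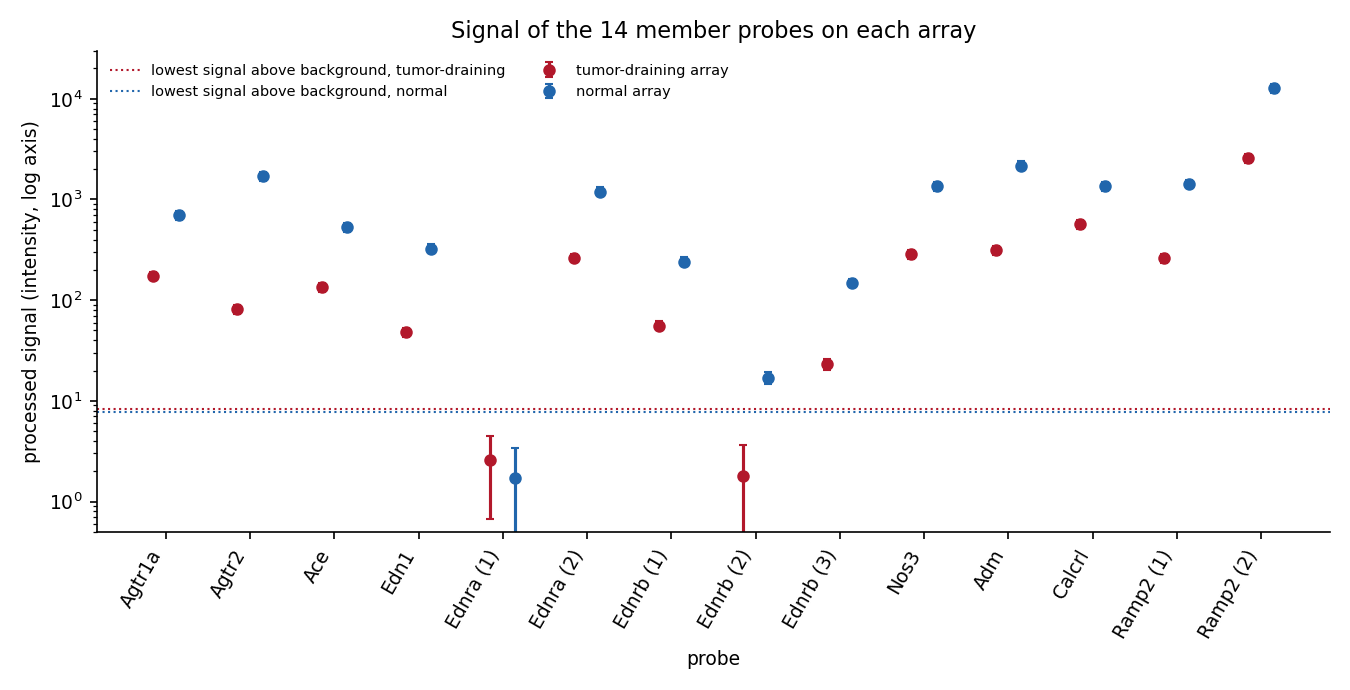
Processed signal (log axis) of the 14 probes, with the tumor-draining array to the left and the normal array to the right of each pair. Bars are the scanner software's error for the spot, and the dotted lines mark the lowest signal above background. In 12 probes both points lie above these lines with the tumor-draining point lower, and the first Ednra probe lies below them on both arrays.

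The angiotensin genes held the largest difference. Agtr2, the receptor that opposes the constricting actions of angiotensin II and is known mostly from fetal tissue, had a signal of 81.8 ± 8.42 on the tumor-draining array and 1703 ± 170.3 on the normal array. This was 20.0-fold lower, a difference of -4.32 ± 0.21, and 7 of the 34042 probes above background on both arrays lay lower. With normexp background correction, which estimates the background from the distribution of signals, it was -3.58. The probe lies at chrX:21065805-21065864 on the plus strand (mm9, as in the array files), 1 of 7 genes with a single probe. Its first 30 of 60 bases are shown because the widest gap rests on this spot alone.
Agtr2 probe: ctctcataccccttccttgggaaaccctga

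Agtr1a, the main constricting receptor in the mouse, had a signal of 175 ± 17.6 on the tumor-draining array and 703 ± 70.3 on the normal array. Its difference was -1.94 ± 0.20, or 3.85-fold lower. The gap between both receptors was 2.38 on the log2 scale, beyond the combined spot error of 0.29. Ace, the peptidase on the vessel lining that makes angiotensin II, had signals of 135 ± 13.6 on the tumor-draining array and 533 ± 53.3 on the normal array, a difference of -1.92 ± 0.20. Ace and Agtr1a were thus within their spot errors of each other, while Agtr2 stood apart from both. The probes lie at chr13:30474638-30474697 for Agtr1a and chr11:105850398-105850457 for Ace, both on the plus strand in mm9.

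In the endothelin system the peptide gene and both receptor genes were lower. Edn1 had a signal of 48.0 ± 5.15 on the tumor-draining array and 326 ± 32.6 on the normal array, with its probe at chr13:42403101-42403160 (plus strand, mm9). It was 6.50-fold lower, a difference of -2.70 ± 0.21, or -1.79 with normexp. The 2-fold call held either way.

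Ednra, the receptor through which endothelin contracts smooth muscle, has 2 probes, and 1 of them was measured. The probe at chr8:80186985-80187044 (minus strand, mm9) had 264 ± 26.5 on the tumor-draining array and 1197 ± 119.7 on the normal array, a difference of -2.12 ± 0.20. The probe at chr8:80184559-80184618, which was designed on a cDNA clone and starts 2426 bases further along the minus strand, was above background on neither array, with 2.57 ± 1.89 on the tumor-draining array and 1.71 ± 1.72 on the normal array. It gives no fold. A mean over both probes was -0.74, so the 2-fold call rests on leaving out the dim one. Of the 14 probe accessions, that of the clone is the 1 not found in the RefSeq gene table (GRCm38.p6), and the other 13 matched the member's own symbol. The first 30 of 60 bases of each Ednra probe are set side by side, since the result for Ednra rests on the first of them.
Ednra probe at 80186985: ggccctggtaactctactgggcattttccc
Ednra probe at 80184559: gttcattttgacctattctggttagaatca

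Ednrb, the endothelin receptor that in endothelium couples to nitric oxide release and that also clears the peptide, has 3 probes. The probe at chr14:104214484-104214543 had 55.9 ± 5.89 on the tumor-draining array and 242 ± 24.2 on the normal array, a difference of -2.05 ± 0.21, or -1.33 with normexp. The probe at chr14:104220870-104220929 had 23.0 ± 2.83 on the tumor-draining array and 149 ± 14.9 on the normal array, a difference of -2.63 ± 0.23. Both were lower, and they differed from each other by 0.58. The third, at chr14:104215479-104215538, was above background on the normal array only, with 1.80 ± 1.81 on the tumor-draining array and 17.0 ± 2.41 on the normal array. Set against 8.27, the lowest signal above background on the tumor-draining array, that is at least 1.97-fold lower. All 3 lie on the minus strand in mm9 and were designed on 3 different RefSeq transcripts of Ednrb. Their first 30 of 60 bases are shown because 2 of these probes carry the result for Ednrb and the third gives only a bound.
Ednrb probe at 104214484: aaggacgccccagatcttcaattttaagtt
Ednrb probe at 104215479: ttccatgtgttcaacttcatcatctgtaaa
Ednrb probe at 104220870: tataccctgatgacctgcgaaatgctcagg

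Nos3 stood in the middle of the set. Its signal was 285 ± 28.5 on the tumor-draining array and 1351 ± 135.1 on the normal array, at chr5:23890038-23890097 (plus strand, mm9). The difference of -2.19 ± 0.20, or 4.55-fold lower, lay close to that of Cdh5 (-2.38), which encodes the cadherin of endothelial junctions. It lay closer still to that of Pdgfrb (-2.13), listed here as a fibroblastic reticular marker. The median of the 12 blood endothelial markers was lower, at -2.97. Cdh5 had 333 on the tumor-draining array and 1801 on the normal array.

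The adrenomedullin genes spread most widely after those of angiotensin. Adm, the peptide, had 314 ± 31.4 on the tumor-draining array and 2171 ± 217.1 on the normal array, at chr7:117773088-117773147 (plus strand, mm9). It was 6.62-fold lower, a difference of -2.73 ± 0.20, and was within its spot error of Edn1. Ramp2, the escort protein, was lower on both of its probes. The probe at chr11:101109501-101109560 had 2553 ± 255.3 on the tumor-draining array and 12804 ± 1280 on the normal array, a difference of -2.26 ± 0.20. The probe at chr11:101108912-101108971, which starts 589 bases before it on the plus strand, had 260 ± 26.0 on the tumor-draining array and 1433 ± 143.3 on the normal array, a difference of -2.40 ± 0.20. The probes differed by 0.14, less than the error of either, and they do not overlap. Their first 30 of 60 bases are shown because these separate stretches gave like differences.
Ramp2 probe at 101108912: actacgaaacacatgtcctaccttgctggt
Ramp2 probe at 101109501: gcagcaaaggggactcacgacacaatgttt

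Calcrl, the receptor that Ramp2 escorts, had the smallest difference of the 10 by its brightest probe. Its signal was 568 ± 56.8 on the tumor-draining array and 1353 ± 135.3 on the normal array, at chr2:84171069-84171128 (minus strand, mm9). That was 2.28-fold lower, a difference of -1.19 ± 0.20, and scaling to the spike-ins gave -0.41, which ends the call. Pecam1, the endothelial adhesion molecule CD31, had a like difference of -1.17, with 248 on the tumor-draining array and 581 on the normal array. Pecam1 was the least lowered of the 12 blood endothelial markers, whose median was -2.97. Calcrl stood 1.07 above Ramp2 on that scale, beyond the combined spot error of 0.29.

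**Figure D2:**
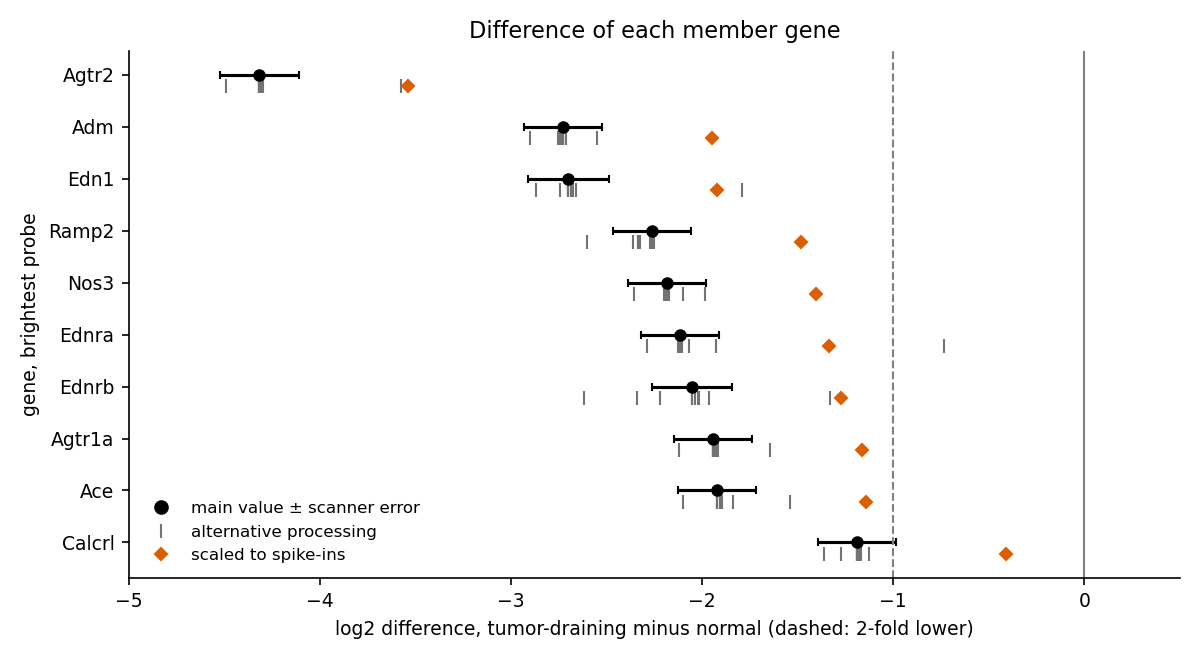
Log2 difference, tumor-draining minus normal, of each gene's brightest probe (black points, bars are the scanner error), with alternative processing as grey ticks and the spike-in scaling as orange diamonds. Agtr2 (-4.32) and Calcrl (-1.19) stand apart at the ends, Adm and Edn1 lie near -2.7, and the other 6 genes lie between -2.26 and -1.92.

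Ordered from the lowest, the differences were Agtr2, Adm, Edn1, Ramp2, Nos3, Ednra, Ednrb, Agtr1a, Ace and Calcrl. Agtr2 was 1.59 below Adm, and Ace was 0.73 below Calcrl, and both gaps exceed the combined spot error of 0.29. Agtr2 was the lowest under every alternative in the plot of differences. The end held by Calcrl was less settled, since with normexp Ednrb (-1.33) lay close to Calcrl (-1.13), and as a mean over all probes Ednra (-0.74) lay above it. Edn1 was 0.44 below Ramp2, but with normexp Edn1 (-1.79) lay above Ramp2 (-2.27), Nos3 (-1.98) and Ednra (-1.93), and apart from Adm (-2.55). The other neighbors lay within 0.11 of each other, so apart from Agtr2 the order is not resolved. The combined spot errors cover spots only, and take in neither the spread between probes nor that between mice. Replicate spots of 298 probes differed with an SD of 0.050, among 7591 genes with several probes the median SD between probes was 0.27, and the spread between mice was not measured.

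Other genes of the same pathways went in more than 1 direction. Lists were drawn up for them by function, 49 genes in all, with earlier results of these arrays known. Of the 43 above background on at least 1 array, 21 were at least 2-fold lower, 6 at least 2-fold higher and 16 within 2-fold, and their median difference was -0.50. Over all genes 16.5% were lower and 11.5% higher. Scaled to the spike-ins, 11 of the 43 were lower and 13 higher, while over all genes 8.32% were lower and 43.8% higher.

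Nitric oxide genes other than Nos3 were lower in 9 of 14 measured cases, with a median of -1.55. The subunits of soluble guanylate cyclase, which senses the gas in smooth muscle, were among them. Gucy1a1 had 225 on the tumor-draining array and 1553 on the normal array (-2.73), Gucy1b1 had 136 and 732 on the same arrays (-2.36), and Gucy1a2 was at -2.82, or -1.84 with normexp. Prkg1, the kinase that the resulting cyclic GMP activates, was at -1.36, or -0.58 scaled to the spike-ins. Cav1, the caveolar protein that binds and restrains Nos3, was at -2.93, or -1.87 with normexp, and Nostrin, a Nos3 trafficking protein, was at -2.03, or -1.12 with normexp. Ddah1 (-1.71, or -0.70 with normexp) and Ddah2 (-2.39), which break down an endogenous inhibitor of nitric oxide synthases, were lower too. Nos2, the inducible synthase, was at -1.39, or -0.61 scaled to the spike-ins. The 2 higher genes were Gch1, which makes the synthase cofactor tetrahydrobiopterin and is active in several leukocytes, and Arg2, an arginase that competes for arginine. Gch1 had 8709 on the tumor-draining array and 2891 on the normal array, or 3.14-fold higher. Arg2 was 2.85-fold higher at low signals of 36.8 on the tumor-draining array and 13.5 on the normal array, or 0.45 on the log2 scale with normexp. Nos1, Pde5a and Nosip were within 2-fold, and Arg1 was above background on neither array.

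Of 11 measured renin-angiotensin genes outside the 10, 4 were lower and 7 within 2-fold. Anpep, an aminopeptidase that trims angiotensins, had 1432 on the tumor-draining array and 6345 on the normal array (-2.09). Enpep, the aminopeptidase that starts the breakdown of angiotensin II, was at -1.78, or -0.998 scaled to the spike-ins, and Agtrap, which binds the Agtr1a receptor, was at -1.35, or -0.57 with that scaling. Agt, the angiotensin precursor, was above background on the normal array only, at 64.7 there, and at least 7.49-fold lower in tumor-draining cells. With normexp its difference was -0.82, which ends the call. Ren1 (0.12), Atp6ap2 (-0.20, or 0.58 scaled to the spike-ins) and Lnpep (0.73, or 1.51 with that scaling) were within 2-fold, as were Mme (0.40, with another probe at -1.21) and, above background on the normal array only, Mas1, with a bound of -0.19 on the log2 scale. Agtr1b, the second mouse gene for that receptor type, was above background on neither array. In the endothelin system Ece1, the enzyme that cuts the precursor of Edn1, had 1794 on the tumor-draining array and 7922 on the normal array (-2.08). The other Ece1 probe above background on both arrays was at -1.62. A mean that also took in Ece1 probes not above background on both arrays was -0.40. Ece2 and Ecel1 were within 2-fold, and Edn2 and Edn3 were above background on neither array.

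Of 6 other measured genes of the adrenomedullin and calcitonin gene-related peptide system, 2 were lower, 2 higher and 2 within 2-fold. Ramp3, which also pairs with Calcrl to form an adrenomedullin receptor, had 2597 on the tumor-draining array and 1165 on the normal array, or 2.33-fold higher. Its probes were at 1.19 and 1.22, and across the alternatives it ranged from 1.02 to 2.00. Ramp1, which turns Calcrl into the receptor for calcitonin gene-related peptide, was within 2-fold at 0.60, although its probes ran from -0.59 to 0.60. Ackr3, an atypical receptor that scavenges adrenomedullin and a chemokine, had 808 on the tumor-draining array and 6341 on the normal array (-2.91). Adm2, a related peptide, was at -1.72, or -0.53 with normexp, at signals of 13.2 on the tumor-draining array and 45.3 on the normal array. Calca, which encodes calcitonin and its gene-related peptide, had a brightest probe 2.58-fold higher and another at -1.41, so its direction is not settled. Crcp was at -0.08, and Calcb and Calcr were above background on neither array.

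**Figure D3:**
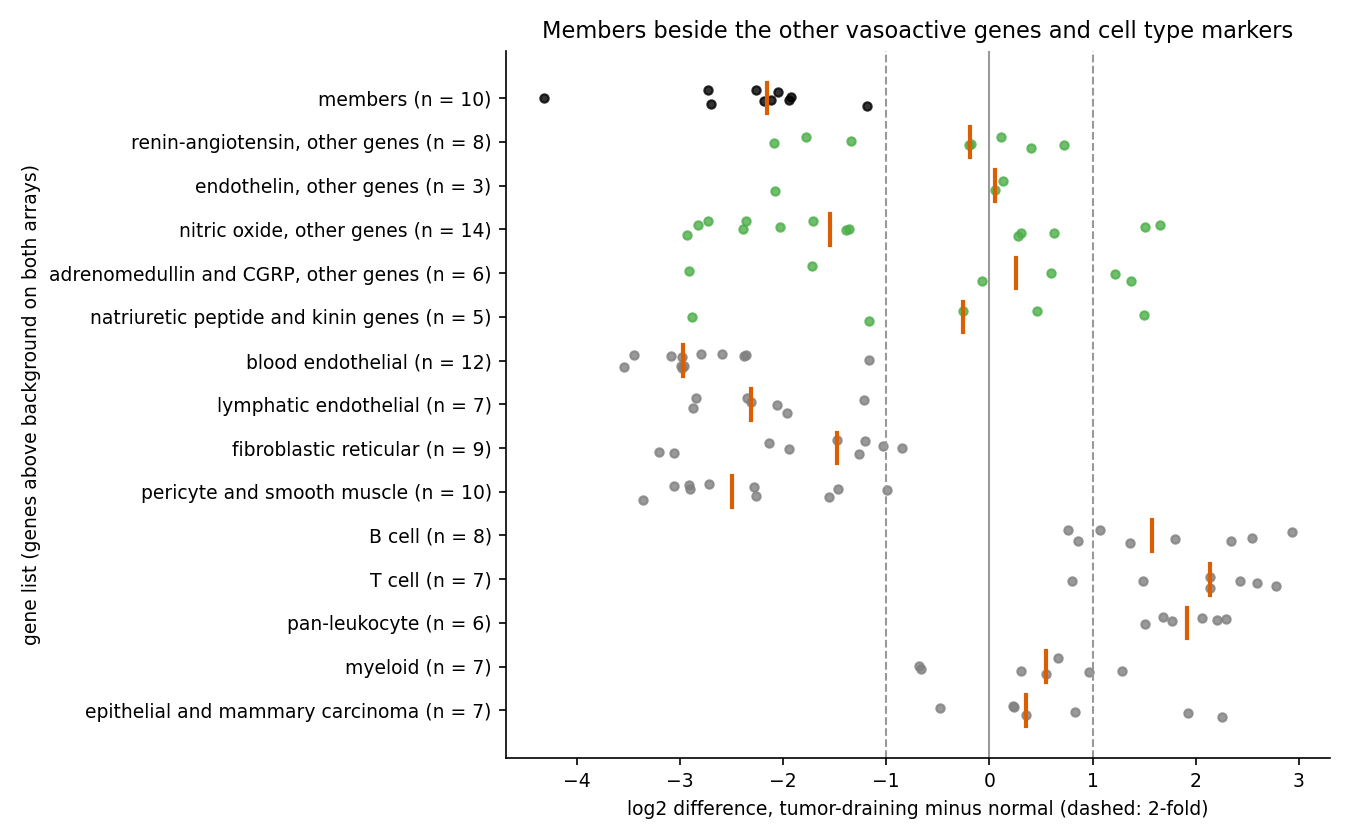
Log2 difference, tumor-draining minus normal, of genes above background on both arrays, one row for each list (black: the 10 genes, green: other vasoactive genes, grey: cell type markers), with the median of the plotted genes as an orange bar. The 10 genes lie among the endothelial, pericyte and smooth muscle, and fibroblastic reticular markers, except Agtr2 at -4.32. B cell, T cell and pan-leukocyte markers lie above 0, while myeloid and epithelial markers lie on both sides of it.

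Set beside cell type markers, 9 of the 10 differences fell in the range of the blood endothelial list, which ran from -3.54 to -1.17. The same 9 fell in the ranges of pericyte and smooth muscle markers (-3.36 to -0.99) and of fibroblastic reticular markers (-3.20 to -0.85). Lymphatic endothelial markers ran from -2.87 to -1.22, with Calcrl (-1.19) just above. Agtr2 lay below all of these ranges. The median of the blood endothelial list was -2.97, that of lymphatic endothelial markers -2.31, of pericyte and smooth muscle markers -2.50, and of fibroblastic reticular markers, with Pdgfrb at -2.13, -1.48. Pdpn, which marks lymphatic endothelium and fibroblastic reticular cells, had 1139 on the tumor-draining array and 4624 on the normal array (-1.96). Medians of B cell, T cell and pan-leukocyte markers were 1.58, 2.14 and 1.92. The median of the 7 myeloid markers was 0.55, with 1 at least 2-fold higher and 6 within 2-fold. For the 7 epithelial and mammary carcinoma markers the median was 0.35, in a range from -0.48 to 2.25. Of these, 2 were at least 2-fold higher and 5 within 2-fold. The lists were not matched to the 10 genes in signal, and no test was made between them.

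Promoter sequence was compared as a feature that the choice of genes did not use. Of the 10 genes, 7 had an entry in the RefSeq promoter table (GRCm38.p6), with 8 starts, since Ace has 2. The 250 bases before each start were searched on both strands for 5 short motifs. These were the hypoxia response core, ACGTG, the AP-1 site, TGANTCA, the core bound by GATA factors, GATAA, the GC box with letters GGGCGG and the TATA box with letters TATAAA. A GC box lay before 3 of the 8 starts, those of Adm, Calcrl and 1 of Ace, beside 32.7% of all 32851 promoters in the table. TATAAA lay before 1 start of Ace, on the opposite strand, beside 12.4% of all. The other 3 motifs lay before none of the 8, beside 16.6% for ACGTG, 6.75% for TGANTCA and 22.6% for GATAA. A match in these letters is no evidence of binding, and a missing match says only that the letters are not in this window.

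3 of these upstream stretches are shown, for the widest difference (Agtr2), the peptide with the next one (Adm) and the start with the most matches (Ace), with matches in capitals. That of Agtr2 is chrX:21484374-21484623, that of Adm chr7:110627407-110627656 and that of Ace chr11:105967698-105967947, all on the plus strand of GRCm38.p6. The Ace stretch has GC boxes at -140 and -136, which overlap, and at -75 and -18, and the TATA box letters at -31 from the start. It also has 19 CpG dinucleotides and 67.2% G and C, beside 7 and 56.8% for Adm and 3 and 38.4% for Agtr2, and medians of 6 and 52.4% over all promoters.
Agtr2 upstream: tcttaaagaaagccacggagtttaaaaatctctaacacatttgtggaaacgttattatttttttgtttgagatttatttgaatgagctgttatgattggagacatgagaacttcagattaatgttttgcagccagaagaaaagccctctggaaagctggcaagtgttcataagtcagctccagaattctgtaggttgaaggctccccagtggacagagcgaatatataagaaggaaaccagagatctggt
Adm upstream: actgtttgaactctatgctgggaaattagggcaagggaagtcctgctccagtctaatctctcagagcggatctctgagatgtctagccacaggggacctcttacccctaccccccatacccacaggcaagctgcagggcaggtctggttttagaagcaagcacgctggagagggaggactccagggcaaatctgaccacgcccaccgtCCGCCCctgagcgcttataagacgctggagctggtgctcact
Ace upstream: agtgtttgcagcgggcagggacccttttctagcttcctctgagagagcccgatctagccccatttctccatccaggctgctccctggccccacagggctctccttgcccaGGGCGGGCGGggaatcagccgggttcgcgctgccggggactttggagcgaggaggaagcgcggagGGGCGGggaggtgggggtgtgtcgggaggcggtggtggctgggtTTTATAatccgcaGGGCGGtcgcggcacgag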

How the data were processed

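RNA of the sorted lymph node cells was amplified and Cy3-labeled for 2 single-color Agilent arrays, per the labels' protocols. The deposited scanner files hold linear intensity values with background subtracted by Feature Extraction 12.0.3.1 (protocol GE1_1200_Jun14), per the file headers, while the submitters' processing notes name version 10.7 and limma. Flags in the deposited files mark spots well above background or as outliers (values other than intensity). Log2 values of unstated scaling make up the authors' deposited table. Its columns had medians of 4.86 (tumor-draining) and 4.85 (normal), followed the log2 signal of the same array (r = 0.9999 over 56603 probes, for both), and their sorted values differed by at most 0.17. The values were not centered by gene, and how they were normalized was not given in the sources used here.

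Each spot's log2 processed signal was reduced by its array's 75th percentile (358 tumor-draining, 374 normal). Control and outlier spots were left out, spots of a probe averaged, and a gene given its brightest probe among those above background on most arrays. Above background means that at least 50% of a probe's spots carry the mark. No non-control spot was saturated. A probe above background on 1 array has a bound, set against the lowest signal above background on the other (8.27 tumor-draining, 7.72 normal). Genes kept the array's names, with Gucy1a1 and Gucy1b1 under older symbols. The genes named were all 10, from each pathway list every gene at least 2-fold different and up to 6 others in list order, and 5 markers. A withheld item is not reported here. Members and lists were chosen with earlier results of these data known. The error of a difference combines the software's errors of both spots. Both arrays shared a slide and scan. Functions were tested on simulated arrays. Python 3.11.15, numpy 2.4.6, pandas 2.3.3, R 4.3.3 and limma 3.58.1 were used. Alternatives were normexp (offset 50), quantile and loess (span 0.3) normalization, other scalings, filters and probe summaries, the authors' table and, added after seeing the data, the median pixel signal.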

Additional observations from a re-analysis of the deposited data

How the results depend on the processing

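All 120 differences of the 10 genes under 12 alternatives were negative, and 118 were at least 2-fold lower. The exceptions were Calcrl scaled to the spike-ins (-0.41) and Ednra as a mean over all probes (-0.74). All 10 genes were at least 2-fold lower under the other 10 alternatives, and 9 under these 2. Between 11 and 13 of the 14 probes were lower. The median difference of the 10 genes was -1.86 with normexp background correction and -1.37 scaled to spike-ins, and between -2.32 and -2.08 otherwise. Of the other vasoactive genes 21 were lower with the main processing, and between 14 and 23 under alternatives other than the spike-in scaling. Scaled to spike-ins 11 were lower, while 8.32% of all genes were. Under that scaling 84.0% of calls over all genes were higher, against 41.0%. Normexp gave 14 of the other vasoactive genes lower and 2 higher. With it 9.9% of all genes were lower and 5.64% higher, against 16.5% and 11.5% with the main processing. Of the differences of single genes, 101 stayed within their spot error and 19 moved further.

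No paired analysis was possible because each group has 1 array. Signal over background limits the dimmest spots, as in the third Ednrb probe at 1.80 on the tumor-draining array, and no alternative stands in for replicate mice.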

Other observations

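Natriuretic peptide and kinin genes, which also act on vessel tone and leakiness, went both ways. Of 9 genes above background on at least 1 array, 5 were lower and 2 higher in tumor-draining cells by 2-fold or more, and Nppa (0.46) and Bdkrb1 (-0.26) were within. By the same rule 16.5% of all genes were lower and 11.5% higher. Bdkrb2, the constitutive bradykinin receptor, had 21.2 on the tumor-draining array and 163 on the normal array, a difference of -2.88, or -1.43 with normexp. Npr2, the receptor for C-type natriuretic peptide, had 365 on the tumor-draining array and 857 on the normal array (-1.17), or -0.39 scaled to the spike-ins. Npr1, the receptor for the atrial and brain peptides, was above background on the normal array only, at 24.0, and was at least 2.78-fold lower, or -0.46 on the log2 scale with normexp. Nppc and Kng1, also above background on the normal array only, were at least 2.31-fold and 2.45-fold lower, or -0.27 and -0.24 with normexp, so these 3 calls end under that correction. Nppb, the brain peptide, was 2.83-fold higher at 30.4 on the tumor-draining array and 11.2 on the normal array, or 0.43 on the log2 scale with normexp. Npr3, the clearance receptor, was at least 2.04-fold higher with the processed signal, while the median pixel signal gave -3.21.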
